A study of Mus musculus with 9 samples.

Results

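A set of 10 genes of antigen presentation by the major histocompatibility complex (MHC) class I pathway were read out in mouse brain cortex: the heavy-chain genes H2-K1, H2-D1, H2-T23, H2-Q4, H2-Q6, H2-Q7 and H2-M3, the light-chain gene B2m, and the peptide-transporter genes Tap1 and Tap2. They were taken by gene name from the 54532 genes of the expression table, and all 10 were found. Cortex RNA came from 3 male mice of each of 3 inbred strains, aged 8 to 12 weeks: C57BL6/J (B6), the strain of the reference genome, C3H/HeJ (C3H), and WSB/EiJ (WSB), a wild-derived strain. The labels name no transgene, deletion or agent, so strain was the only labelled difference, and each mouse gave 1 library of paired-end reads of 150 bases. The study compared C3H and WSB with B6 to look for strain-specific transcript levels. The strains carry different haplotypes of the mouse MHC (H2), and the comparison asked here is how the transcript levels of the class I genes in cortex differed with them.

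MHC class I molecules are made of a polymorphic heavy chain, the invariant light chain beta-2 microglobulin (B2m) and a short peptide, and present peptides of the cell's own proteins at its surface to CD8+ T cells and natural killer receptors. Peptides cut by the proteasome are pumped into the endoplasmic reticulum by the transporter of Tap1 and Tap2 and loaded there onto the heavy chain with the help of tapasin and chaperones. In brain, class I transcripts are low in comparison with lymphoid tissue and are found in microglia, endothelium and some neurons, where the proteins have been studied for roles in synapse remodelling as well as in immunity. The classical heavy chains, H2-K1 and H2-D1, are among the most polymorphic genes of the mouse, whereas H2-T23, the Q genes and H2-M3 are nonclassical.

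Of the 10 genes, 9 lie on chromosome 17, within chr17:33996017-37274484. B2m alone lies elsewhere, at chr2:122147686-122153083. In the order of the chromosome on GRCm38, H2-K1 (ENSMUSG00000061232) lies at chr17:33996017-34000333 on the minus strand, Tap1 (ENSMUSG00000037321) at chr17:34187553-34197225 on the plus strand and Tap2 (ENSMUSG00000024339) at chr17:34203527-34216321 on the plus strand. H2-D1 (ENSMUSG00000073411) lies at chr17:35262730-35267499, H2-Q4 (ENSMUSG00000035929) at chr17:35379617-35385290, H2-Q6 (ENSMUSG00000073409) at chr17:35424850-35430055 and H2-Q7 (ENSMUSG00000060550) at chr17:35439155-35443773, all on the plus strand. H2-T23 (ENSMUSG00000067212) lies at chr17:36029773-36032855 on the minus strand, and H2-M3 (ENSMUSG00000016206) at chr17:37270220-37274484 on the plus strand.

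The heavy-chain genes resemble each other, which matters for counting their reads. Coding sequences of the B6 reference were 91.4% identical between H2-K1 and H2-D1 and 95.4% between H2-Q6 and H2-Q7, whereas H2-M3 was 71.3% to 72.2% identical to the other heavy chains. The 75 coding bases least alike among the heavy chains lay in exon 3 of H2-K1, at chr17:33999330-33999404, where 26 of 75 positions were the same in all 7 genes. They are shown in the direction of the gene, with capitals for bases that differ from H2-K1, because reads over such stretches can be assigned to 1 gene:
H2-K1: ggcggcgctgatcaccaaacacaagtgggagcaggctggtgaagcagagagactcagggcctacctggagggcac
H2-D1: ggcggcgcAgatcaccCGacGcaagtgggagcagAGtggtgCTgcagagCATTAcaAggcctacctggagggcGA
H2-Q6: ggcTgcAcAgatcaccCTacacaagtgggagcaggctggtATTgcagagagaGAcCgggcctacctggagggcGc
H2-Q7: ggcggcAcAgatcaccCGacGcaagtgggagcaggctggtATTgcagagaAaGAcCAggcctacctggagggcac
H2-D1 differed from H2-K1 at 16 of these bases, H2-Q6 at 12 and H2-Q7 at 13. The 75 bases most alike lay in exon 4 of H2-K1, at chr17:33997359-33997433, where 70 of 75 positions were the same in all 7 genes. There H2-K1, H2-D1, H2-Q6 and H2-Q7 were identical, and the stretch is shown as an example of shared sequence. It is shorter than a full read of 150 bases, which would also cover bases beyond it:
Shared exon 4 stretch: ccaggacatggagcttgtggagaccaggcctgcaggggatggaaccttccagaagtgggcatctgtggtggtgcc
A single reference transcript of each member was searched for exact stretches of 150 bases, the length of 1 read. Those of H2-K1, H2-D1, H2-T23, H2-M3 and B2m held no stretch found in another gene. Other transcripts of a member, such as the rest of the 16 of H2-K1, and alleles of C3H and WSB were not searched. Of the stretches of that length, 8.4% were shared in H2-Q4, 6.0% in H2-Q6, 11.6% in H2-Q7, 2.2% in Tap1 and 0.7% in Tap2. The partners were Gm11131 for H2-Q4, H2-Q7 for H2-Q6 and mainly H2-Q6 for H2-Q7, so the levels of these Q genes are uncertain. The table gives 1 set of gene models, with GRCm38 coordinates, for all 3 strains. A lower transcript level in C3H or WSB and a lower share of their reads being assigned to the gene therefore cannot be told apart for any member below. Whether counting used the strand is not given in the sources used here, so reads of B2m and Patl2, Tap1 and Psmb9, H2-T23 and A930015D03Rik, and H2-Q4 and Gm11131, which overlap on opposite strands, could not be separated, nor could those of Tap2 and its antisense neighbours.

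The promoters of class I genes carry a set of shared elements: a kappaB site, an element for interferon regulatory factors, and the X and Y boxes bound by the complex that NLRC5 activates. RefSeq promoter sequences on GRCm38.p6 were at hand for 9 of the 10 genes. The promoters of 4 genes are shown, 5' to 3' and up to 250 bases before the start with bases under annotated exons left out: H2-K1, H2-Q6 and B2m as genes that were lower in C3H than in B6, and H2-M3 as one that was not called. Capitals mark matches on either strand to the letters GGGNNTTCC (kappaB, N being any base), AANNGAAA (interferon regulatory factor), TGACG (X2 box) and CCAAT (Y box), and no match to one overlapped a match to another:
H2-K1: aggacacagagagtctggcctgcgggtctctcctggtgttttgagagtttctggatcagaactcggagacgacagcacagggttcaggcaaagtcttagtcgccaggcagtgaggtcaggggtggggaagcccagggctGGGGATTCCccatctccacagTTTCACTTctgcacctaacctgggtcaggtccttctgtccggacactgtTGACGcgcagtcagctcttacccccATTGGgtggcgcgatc
H2-Q6: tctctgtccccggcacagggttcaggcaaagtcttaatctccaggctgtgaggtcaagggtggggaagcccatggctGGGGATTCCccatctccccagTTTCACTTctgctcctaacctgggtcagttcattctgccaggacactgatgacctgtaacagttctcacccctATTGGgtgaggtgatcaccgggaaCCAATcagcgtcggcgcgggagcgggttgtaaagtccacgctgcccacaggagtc
B2m: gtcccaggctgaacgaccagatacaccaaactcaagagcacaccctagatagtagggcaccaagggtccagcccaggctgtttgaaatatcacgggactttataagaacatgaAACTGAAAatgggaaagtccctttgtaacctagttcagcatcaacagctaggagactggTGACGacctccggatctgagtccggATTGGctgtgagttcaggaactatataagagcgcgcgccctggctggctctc
H2-M3: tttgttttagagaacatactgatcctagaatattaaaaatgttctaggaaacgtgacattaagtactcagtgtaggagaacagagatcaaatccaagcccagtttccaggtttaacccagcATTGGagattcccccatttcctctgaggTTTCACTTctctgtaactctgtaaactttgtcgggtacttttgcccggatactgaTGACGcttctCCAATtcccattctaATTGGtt
The counts that follow use all 250 bases before each start, bases under annotated exons included. In H2-D1, H2-Q4 and Tap1 all 250 lay under an annotated exon and in H2-T23 154 did. The kappaB letters occurred in 5 of the 9 promoters, as GGGGATTCC in H2-K1, H2-D1, H2-Q6 and H2-Q7 and as GGGATTTCC in H2-Q4, and in 4.98% of 32851 mouse promoters of the same length. These 5 genes are paralogs, so their matches are not independent, and the letters were loosened after matches to a stricter form had been seen. The interferon element was found in 8 of the 9 (21.3% of all promoters), the X2 letters in 7 (17.8%) and the Y box letters in all 9 (33.8%). H2-K1 held all 4 elements, in the order kappaB, interferon, X2 and Y towards the start. H2-M3 and B2m held matches to 3 of them and lacked the kappaB letters. Lacking these letters does not show that a promoter has no kappaB site, because sites of another spacing were not searched. In B2m the stretch ggaaagtccc differs from the letters, read on the opposite strand, by an added base and was not counted. The counted matches are in the B6 reference, and the promoters of C3H and WSB were not analysed here.

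Levels are given in FPKM, the fragments counted for each kilobase of a gene after scaling for the size of the library. The gene length used was 2608 bases for H2-K1, 2889 for H2-T23 and 4265 for H2-Q7. Their transcripts searched above had 1619, 1472 and 1497 bases, whereas for B2m (860) and H2-M3 (1438) both lengths were equal. A longer length lowers FPKM, so comparisons between different genes, and ratios of them, are rough. Reads on genes numbered 17651630 to 21562429 per B6 library, 19042306 to 19433751 per C3H library and 16317439 to 17784118 per WSB library. The markers of cortical neurons summed to 692 to 762 FPKM in B6, and in C3H to 705 to 811 and in WSB to 654 to 750, so the defining markers of the labelled tissue were present. H2-Ea-ps, the annotated name of the class II E alpha gene that the b haplotype of B6 does not transcribe, had 0 reads in each B6 mouse, 15 to 26 in a C3H mouse and 12 to 14 in a WSB mouse, as the label of B6 asks. Choroid plexus markers summed to 764 FPKM in B6 replicate 2, against 64.7 and 66.8 in the other B6 mice, and lay at 92.4 to 657 across C3H and 468 to 604 across WSB. Apart from Ttr no marker of that list was above 5.95 FPKM in any mouse, so these sums were mostly Ttr. The labels do not tie the mice of a strain to separate litters, so p-values measure the spread between these mice only. With 3 mice against 3, each strain pair was fitted with limma across all genes whose mean reached 0.1 FPKM, on log2(FPKM + 0.1), which understates the change of low genes, and a gene was called at a Benjamini-Hochberg adjusted p under 0.05 over all genes tested.

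Heavy-chain and light-chain transcripts of class I were lower in C3H and in WSB than in B6 for several members, and no member was called higher than in B6. In C3H, 5 of the 9 members tested were called and all 5 were lower (B2m, H2-K1, H2-D1, H2-T23 and H2-Q6), beside 4.64% of all 20602 genes tested, and 2.26% called lower. In WSB, 5 of 10 were called and all 5 were lower (B2m, H2-K1, H2-D1, H2-T23 and H2-Q4), beside 5.9% of all 20746 genes, and 3.09% called lower. The median log2 difference of the members was -0.76 in C3H and -0.78 in WSB, against -0.0038 and 0.0025 over all genes. Values of the strains did not overlap for 6 of the 9 members in C3H against B6 and for 7 of 10 in WSB against B6, where 28.9% and 26.0% of all genes did not overlap. H2-Q6 in both comparisons and H2-Q7 in WSB passed the limit on low values only through their B6 mice, so the counts over tested members are descriptions. Both comparisons share the 3 B6 mice, so they are not independent. Without B6 replicate 2, 4 members were called in each, with H2-Q6 lost in C3H and H2-Q4 lost in WSB.

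**Figure D1:**
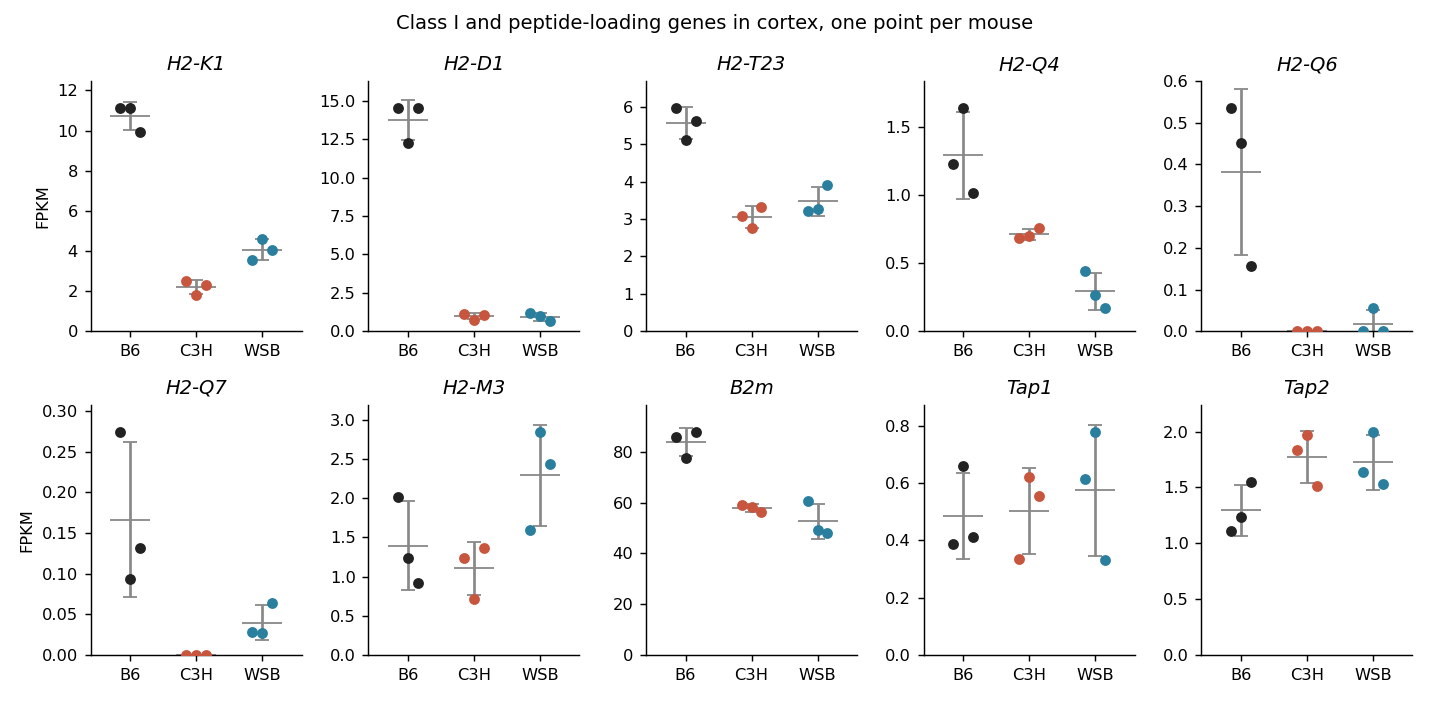
FPKM of the 10 class I genes in each of the 9 mice, 1 panel a gene with its own axis from 0, a point for each mouse, a horizontal line at the mean and bars of 1 SD (n = 3 mice a strain). The B6 points lie above all C3H and WSB points for H2-K1, H2-D1, H2-T23, H2-Q4, H2-Q6, H2-Q7 and B2m, and the strains overlap for Tap1 and Tap2.

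Of the classical heavy chains, H2-D1 showed the larger difference from B6. It was at 14.5, 12.3 and 14.6 FPKM in the B6 mice, at 1.15, 0.740 and 1.08 in C3H, and at 1.19, 0.963 and 0.679 in WSB. Every B6 mouse was above every mouse of the other strains by a wide margin, and C3H and WSB overlapped. The mean of 13.8 ± 1.30 FPKM (SD, n = 3) in B6 was 14.0 times that of C3H, 0.988 ± 0.217 (SD, n = 3), and 14.6 times that of WSB, 0.944 ± 0.255 (SD, n = 3). By limma the log2 difference was -3.69 ± 0.17 (SE) in C3H (adjusted p = 2.66e-05) and -3.76 ± 0.19 (SE) in WSB (adjusted p = 4.16e-05). In reads, H2-D1 had 640 to 800 in a B6 library, 37 to 55 in a C3H library and 32 to 51 in a WSB library.

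H2-K1, the other classical heavy chain, gave each strain its own level. Its values were 11.1, 11.1 and 9.95 FPKM in B6, 2.49, 1.80 and 2.31 in C3H, and 3.55, 4.58 and 4.05 in WSB. No 2 strains overlapped, and WSB lay between the others. The means with their SD (n = 3) were 10.7 ± 0.68 for B6, 2.20 ± 0.36 for C3H and 4.06 ± 0.52 for WSB, so that B6 was 4.87 times C3H and 2.64 times WSB. The log2 difference was -2.24 ± 0.14 (SE) in C3H (limma, adjusted p = 0.000101) and -1.39 ± 0.11 (SE) in WSB (limma, adjusted p = 0.000501). H2-K1 and H2-D1 were close to each other in B6, with H2-K1 at 0.785 ± 0.111 (SD, n = 3) of H2-D1. In C3H H2-K1 was 2.25 ± 0.16 times H2-D1 and in WSB 4.57 ± 1.5 times (SD, n = 3).

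**Figure D2:**
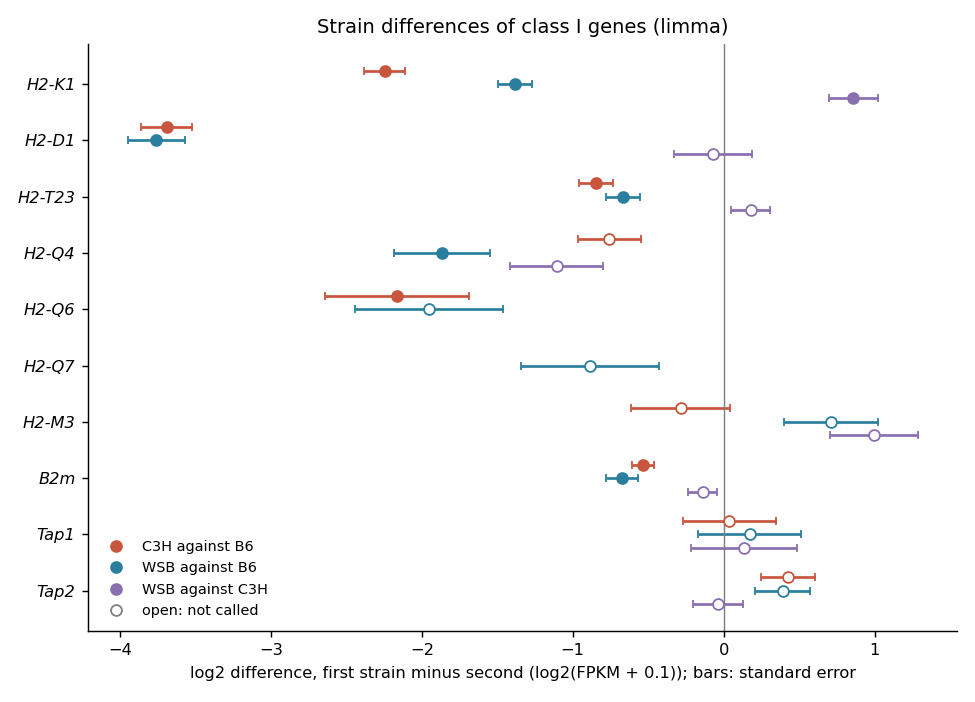
Log2 differences of each class I gene for C3H against B6, WSB against B6 and WSB against C3H on the log2(FPKM + 0.1) scale, with bars of 1 standard error from limma, filled where the adjusted p was under 0.05. The filled points for B2m, H2-K1, H2-D1, H2-T23, H2-Q4 and H2-Q6 against B6 are all below 0, and H2-K1 is the only filled point between WSB and C3H.

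H2-T23 encodes Qa-1, the nonclassical heavy chain that shows leader peptides of other class I chains to CD94/NKG2 receptors. It was at 5.97, 5.11 and 5.62 FPKM in B6, at 3.09, 2.75 and 3.32 in C3H and at 3.23, 3.28 and 3.90 in WSB. B6 stood above both strains, which overlapped each other, and its log2 differences lay nearer to 0 than those of the classical chains. The log2 difference was -0.85 ± 0.11 (SE) in C3H (limma, adjusted p = 0.0066) and -0.67 ± 0.11 (SE) in WSB (limma, adjusted p = 0.0162). The WSB call was lost in 4 of the 6 fits that left out 1 mouse, those without B6 replicate 1 or 3 or WSB replicate 1 or 2, with adjusted p from 0.0568 to 0.0661.

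The Q genes were low in all strains. H2-Q4, a nonclassical heavy chain, was at 1.23, 1.64 and 1.01 FPKM in B6, at 0.683, 0.696 and 0.754 in C3H and at 0.440, 0.267 and 0.169 in WSB. The 3 strains did not overlap, in the order B6, C3H and WSB. The difference from B6 was called in WSB (log2 difference -1.86 ± 0.32 (SE), limma adjusted p = 0.0166) and not in C3H (-0.76 ± 0.21 (SE), adjusted p = 0.0913). Leaving out B6 replicate 1, B6 replicate 2 or WSB replicate 2 took the WSB call away.

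H2-Q6 and H2-Q7, which encode Qa-2, were close to the limit of detection. In the B6 mice H2-Q6 had 20, 19 and 7 reads (0.536, 0.451 and 0.158 FPKM), in C3H it had 0 in each mouse, and in WSB 0, 2 and 0. B6 was therefore above both strains in every mouse, though on few reads. Counting 3 reads as the limit in each library with 0, H2-Q6 was at least 5.07-fold lower in C3H, and limma called it (adjusted p = 0.0489), a call lost in 5 of the 6 fits without 1 mouse and kept only without B6 replicate 3. In WSB the ratio of B6 to WSB was 20.2 (95% exact interval 5.29 to 172, counting error only), and the gene was not called (limma adjusted p = 0.0681). H2-Q7 had 21, 8 and 12 reads in the B6 mice (0.275, 0.0929 and 0.132 FPKM), 0 in each C3H mouse, and 2, 2 and 5 in WSB. Again each B6 mouse had more than any mouse of the other strains. It was at least 4.53-fold lower in C3H, where its mean was under the limit for testing, and the ratio of B6 to WSB was 4.0 (95% exact interval 1.92 to 9.37, counting error only; limma adjusted p = 0.339 for WSB).

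H2-M3, which presents N-formylated peptides such as those of mitochondria and bacteria, was the only heavy chain whose values overlapped B6 in both strains. It was at 2.02, 1.24 and 0.914 FPKM in B6, at 1.23, 0.718 and 1.36 in C3H and at 1.59, 2.85 and 2.44 in WSB. WSB overlapped B6 and lay above C3H, and B6 and C3H overlapped. Neither difference from B6 was called, at -0.28 ± 0.33 (SE) log2 in C3H (limma adjusted p = 0.626) and 0.71 ± 0.31 (SE) in WSB (limma adjusted p = 0.258). With 20 to 71 reads per library, differences of this size were not resolved from the spread between mice.

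B2m, the light chain that every class I heavy chain needs at the cell surface, was the most abundant member in every mouse. It was at 85.9, 77.6 and 88.0 FPKM in B6, at 59.2, 58.1 and 56.2 in C3H and at 60.7, 49.4 and 48.2 in WSB. All B6 mice were above all others, and C3H and WSB overlapped. B6 exceeded C3H by 1.45 times and WSB by 1.59 times, with log2 differences of -0.53 ± 0.07 (SE) in C3H (limma adjusted p = 0.00784) and -0.67 ± 0.10 (SE) in WSB (limma adjusted p = 0.0110). B2m was called in each of the 12 fits against B6 that left out 1 mouse. Its transcript has a GC content of 41.2%, against 51.0% to 56.9% in the other members, and once each library's dependence on GC content was removed the C3H difference was -0.27 (limma adjusted p = 0.186) and the WSB difference -0.64 (limma adjusted p = 0.00732). Without a variance trend in limma B2m missed the threshold in both comparisons (adjusted p = 0.0501 in C3H and 0.0517 in WSB).

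The summed level of the 7 heavy-chain genes differed more than that of the light chain. The sum was 35.7, 31.9 and 32.3 FPKM in the B6 mice, 8.64, 6.71 and 8.82 in C3H and 10.02, 12.0 and 11.3 in WSB. The strains did not overlap, with C3H lowest. B2m per heavy chain was 2.52 ± 0.17 (SD, n = 3) in B6, 7.29 ± 1.21 in C3H and 4.81 ± 1.08 in WSB, with ranges of 2.41 to 2.72, 6.37 to 8.66 and 4.10 to 6.05. The makeup of the sum differed as well. H2-K1 and H2-D1 together gave 73.7% ± 2.0 (SD, n = 3) of it in B6, 39.5% ± 2.3 in C3H and 45.1% ± 2.9 in WSB. H2-T23 gave 16.7% ± 0.7 in B6, 38.1% ± 2.7 in C3H and 31.3% ± 3.7 in WSB, and was the largest single share in C3H. H2-M3 gave 4.12% ± 1.43 in B6, 13.5% ± 2.5 in C3H and 20.4% ± 4.1 in WSB. These sums, ratios and shares are descriptions without a test. They depend on the gene lengths used for FPKM, which exceed the transcript for several heavy chains and not for B2m or H2-M3.

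**Figure D3:**
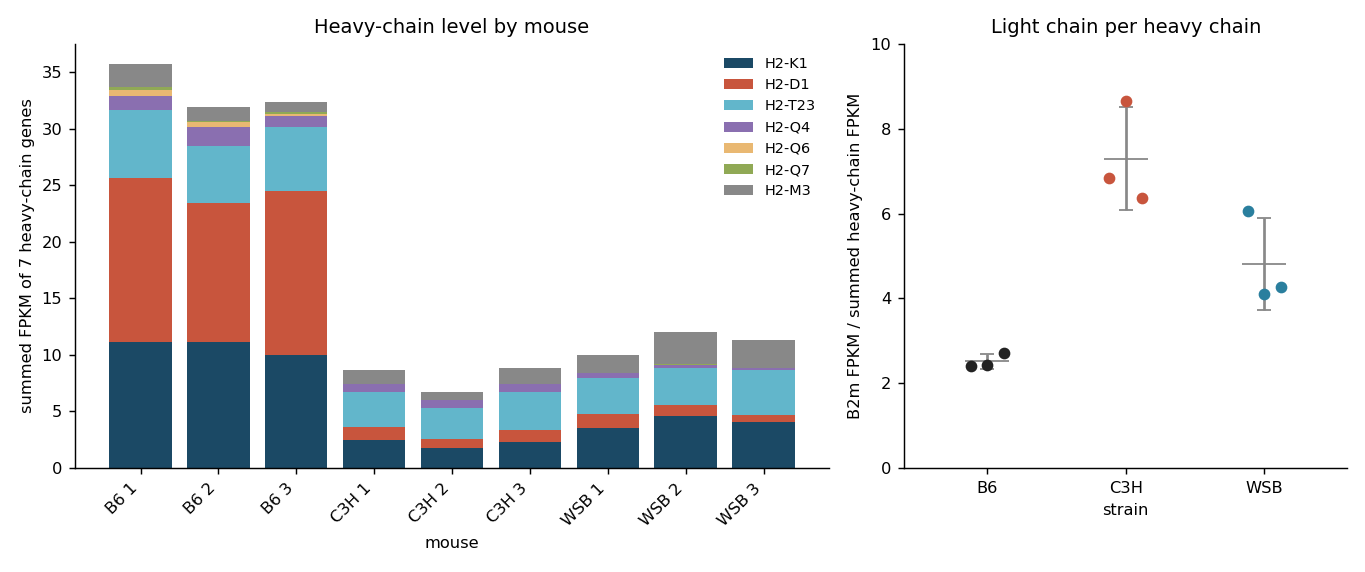
Left, summed FPKM of the 7 heavy-chain genes in each mouse, stacked by gene. Right, FPKM of B2m divided by that sum, with a point for each mouse, the mean and bars of 1 SD (n = 3). The B6 bars stand at 31.9 to 35.7 FPKM and are mostly H2-D1 and H2-K1, those of C3H and WSB at 6.71 to 12.0, and the ratio is lowest in B6.

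Neither subunit of the peptide transporter was called. Tap1 was at 0.388, 0.660 and 0.411 FPKM in B6, at 0.334, 0.622 and 0.555 in C3H and at 0.615, 0.780 and 0.330 in WSB. All 3 strains overlapped, and the log2 differences from B6 were 0.04 ± 0.31 (SE) in C3H (limma adjusted p = 0.954) and 0.17 ± 0.34 (SE) in WSB (limma adjusted p = 0.837). Tap2, its partner, was at 1.11, 1.23 and 1.55 FPKM in B6, at 1.83, 1.97 and 1.51 in C3H and at 1.64, 2.001 and 1.53 in WSB. In B6, 2 of the 3 mice were below every mouse of the other strains, and the third lay within both ranges. The log2 differences were 0.43 ± 0.18 (SE) in C3H (limma adjusted p = 0.201) and 0.39 ± 0.18 (SE) in WSB (limma adjusted p = 0.279), neither called.

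Between WSB and C3H, 1 of the 8 members tested was called, beside 5.74% of all 20607 genes (2.61% called higher), and the median log2 difference of the members was 0.05 against 0.0089 over all genes. That member was H2-K1, which was higher in WSB by 0.86 ± 0.16 (SE) on the log2 scale (limma adjusted p = 0.0243). This call was held in only 1 of the 6 fits without 1 mouse, the one without C3H replicate 2. In all, 3 members did not overlap between these strains, H2-K1, H2-M3 and H2-Q4, where 28.6% of all genes did not overlap. H2-M3 was 1.0 ± 0.29 (SE) above C3H in WSB (limma adjusted p = 0.0981) and H2-Q4 was 1.11 ± 0.31 (SE) below it (limma adjusted p = 0.0891). Differences for H2-D1, H2-T23, B2m, Tap1 and Tap2 lay between -0.14 and 0.18, and H2-Q6 and H2-Q7 were under the limit for testing.

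Other class I heavy chains and class I-like genes included further genes that were lower. Of 25 listed, 21 were found and 12 could be tested against B6, with 4 called lower by limma in C3H and 4 in WSB, beside 2.26% and 3.09% of all genes called lower, and none higher. These were H2-K2, H2-Q1, H2-Q2 and H2-T22 in both comparisons. H2-K2, H2-Q1 and H2-Q2 averaged under 0.1 FPKM in C3H and in WSB, so they passed the limit on low values only through their B6 mice and could not have been called higher, and the counts are descriptions. H2-Q1 fell from 0.841 ± 0.219 FPKM (SD, n = 3) in B6 to 0.0729 ± 0.0169 in C3H and 0.0606 ± 0.0220 in WSB. H2-T22, a ligand of gamma delta T cells, was at 5.32 ± 0.23 FPKM (SD, n = 3) in B6, 3.45 ± 0.08 in C3H and 2.86 ± 0.34 in WSB. H2-K2 had 16 to 39 reads in a B6 library and at most 2 in any other, and H2-Q2 15 to 26 and at most 4. These are paralogs of the members, so how reads were split among them is uncertain. The medians of this list were -0.35 log2 in C3H and -0.72 in WSB. Between WSB and C3H, H2-Bl (-2.93 ± 0.38 (SE)) and Fcgrt (-0.69 ± 0.10 (SE)), the neonatal Fc receptor, were lower in WSB out of 9 tested (limma adjusted p = 0.00590 and 0.00975), and H2-Bl passed the limit only through C3H.

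Most genes that supply and load the peptides were not called, as was so for most genes tested. Of all genes, limma called 4.64% in C3H against B6, 5.9% in WSB against B6 and 5.74% between WSB and C3H. Of 11 proteasome and peptidase genes, Psmb5, a catalytic subunit of the constitutive proteasome, was lower in C3H (-0.74 ± 0.09 (SE), limma adjusted p = 0.00398) and in WSB (-0.71 ± 0.11 (SE), limma adjusted p = 0.010). Psmb10, a subunit of the immunoproteasome, was higher in C3H (0.56 ± 0.10 (SE), limma adjusted p = 0.0196) and not in WSB, and was lower in WSB than in C3H (-0.46 ± 0.08 (SE), limma adjusted p = 0.0197). The list's medians were 0.18 and 0.03. Psmb8 and Psmb9, the other immunoproteasome subunits, were not called, with log2 differences of -0.03 and 0.18 in C3H and -0.81 and -0.08 in WSB (limma adjusted p = 0.0824 for Psmb8 in WSB). In the loading complex (Tapbp, Tapbpl, Calr, Canx, Pdia3, Hspa5 and Uggt1) limma called 0 of 7 in each of the 3 comparisons. For 7 genes that is near the shares over all genes. At an unadjusted p under 0.05 the counts were 4, 1 and 2, beside 4972 of 20602, 4235 of 20746 and 4912 of 20607 over all genes. With voom weights limma called 1, 0 and 1, each time Hspa5. Tapbp, which encodes tapasin, was at log2 differences of 0.17 in C3H and 0.28 in WSB.

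The tested regulators of class I transcription held no called gene, a count near the share over all genes. For the 14 tested of 15, which include Nlrc5, Rfx5, Irf1 and Rela, limma called 0 in each comparison, beside 4.64%, 5.9% and 5.74% of all genes. At an unadjusted p under 0.05 there were 3, 3 and 1, beside 4972 of 20602, 4235 of 20746 and 4912 of 20607 over all genes. Voom weights called 0 in each comparison, and the medians against B6 were -0.02 and 0.03. Of 20 interferon-stimulated genes, 1 was lower in C3H (Igtp) and 2 in WSB (Gbp3 and Igtp), with medians of -0.07 and -0.33, beside 4.64% and 5.9% of all genes called. By limma 1 and 6 had an unadjusted p under 0.05, beside 4972 of 20602 and 4235 of 20746 over all genes. Log2 differences lay below 0 for 12 of 20 in C3H and 18 of 20 in WSB. Values did not overlap B6 for 4 and 9 of the 20, beside 28.9% and 26.0% of all genes. With voom weights 0 were called in C3H and 1 in WSB (Gbp3), so both Igtp calls were lost. Igtp, an interferon-inducible GTPase, was at 2.25 ± 0.11 FPKM (SD, n = 3) in B6 against 1.33 ± 0.13 in C3H and 1.34 ± 0.20 in WSB. In WSB against C3H, Ifit1, Gbp3 and Bst2 were lower in WSB, of which voom weights called Gbp3 and Ifit1. Receptors for class I molecules on lymphoid and myeloid cells were near the limit of detection, with 2, 1 and 2 of 12 genes tested and 0 called by limma in each comparison. Of these 0, 0 and 1 had an unadjusted p under 0.05, and voom weights called Pirb between WSB and C3H.

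**Figure D4:**
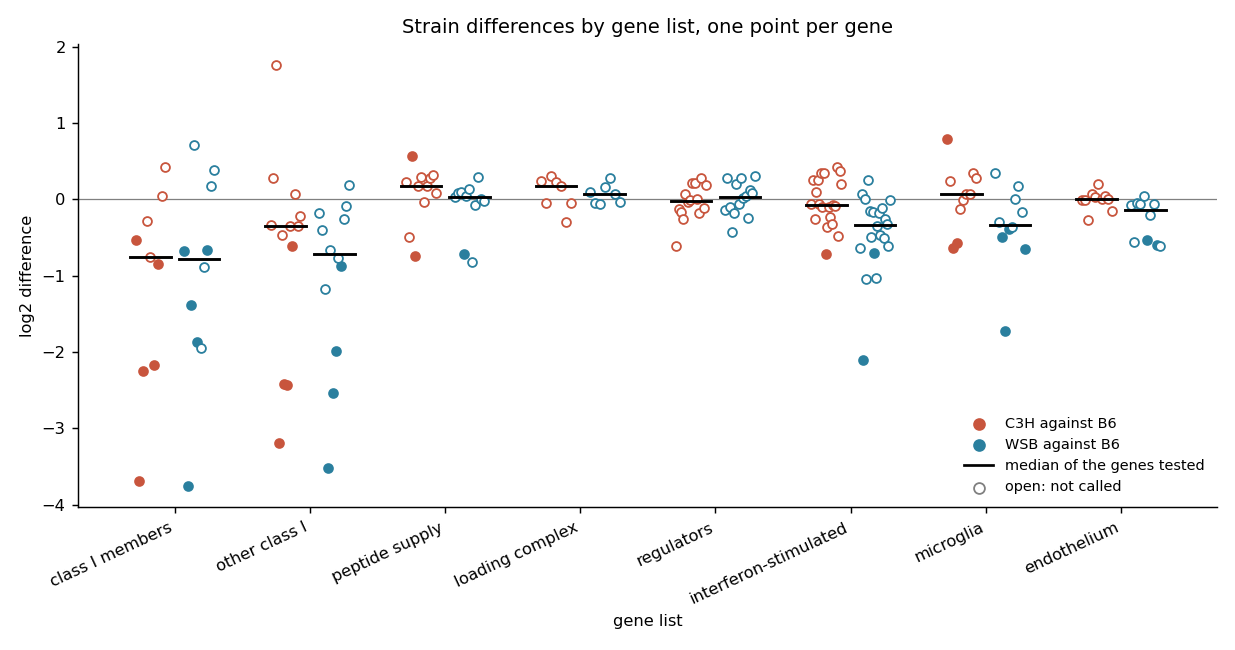
Log2 differences from B6 of the genes tested in each list, a point for each gene, with C3H and WSB side by side, filled where called by limma, and a black line at the median of the genes tested. The class I members and the other class I genes reach below -3. The loading complex and the regulators have no filled point, which is near the 4.64% and 5.9% of all genes called.

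In bulk tissue, fewer cells of a type and less RNA per cell cannot be told apart, so markers of cells that express class I were set beside the members. The 10 microglia markers summed to 227 to 236 FPKM in B6 mice, to 205 to 240 in the C3H mice and to 174 to 188 in the WSB mice. Against B6, C1qb and C1qc were lower and Aif1 higher in C3H, and C1qb, C1qc, Csf1r and Trem2 were lower in WSB, of 10 tested in each, beside 4.64% and 5.9% of all genes called. The 10 endothelial markers summed to 60.1 to 66.6 FPKM in B6, against 60.2 to 72.2 in C3H mice and 45.9 to 56.2 in WSB mice, with 0 called by limma in C3H (0 at an unadjusted p under 0.05 and 0 with voom weights) and 2 lower in WSB (Itm2a and Slco1a4). Leukocyte markers summed to at most 5.76 FPKM in any mouse, and 1 of 10 was at 0 reads in every B6 mouse, 1 in C3H and 4 in WSB. The microglia and endothelial sums of C3H overlapped those of B6, and in WSB both sums were below those of every B6 mouse. Red-cell markers summed to 632 to 1010 FPKM in C3H against 217 to 254 in B6 and 249 to 329 in WSB, and oligodendrocyte markers to 366 to 527 in WSB against 679 to 864 in B6 and 645 to 859 in C3H. Astrocyte markers summed to 172 to 207 FPKM in B6, against 189 to 220 in C3H and 171 to 180 in WSB. The part of these cells in the class I values was not tested.

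The genes between the outermost members on chromosome 17 were set beside the class I genes. The interval from H2-K1 to H2-M3 spans 3.28 Mb and holds 299 genes, 163 of them protein-coding. In C3H against B6, 8 of 20 tested H2-named genes other than the members were called (40.0%, 7 of them lower), beside 6 of 118 genes without an H2 name (5.08%) and 4.59% in the rest of the genome. Of the 8, 4 passed the limit on low values only through 1 of the strains: H2-Q1, H2-Q2 and H2-Ke6 through B6 and H2-Ea-ps through C3H. In WSB against B6 the counts were 8 of 20 (40.0%, 6 of them lower), 8 of 118 (6.78%) and 5.84%, and 3 of the 8 (H2-Q1, H2-Q2 and H2-Ea-ps) passed through 1 strain only. The same held for 3 of the 6 called genes without an H2 name in C3H (Gm20493, Msh5 and Stk19-ps1). In WSB it held for 2 of the 8 (Gm20443 and Lta). In the rest of the genome it held for 20.4% of the called genes in C3H and 21.6% in WSB. Such genes could be called in 1 direction only, and the shares are descriptions. In both comparisons the called genes included H2-Q1, H2-Q2 and H2-T22, already counted among the other class I genes above. The rest were outside that list: H2-Ab1, H2-DMb1, H2-Ea-ps and H2-Eb1 in both comparisons, H2-Ke6 in C3H and H2-DMa in WSB. Of the other H2-named genes tested between WSB and C3H, 1 of 17 was called (5.88%), H2-Bl. Genes with the smallest adjusted p in the interval, members left out, were H2-Ea-ps, Stk19-ps1, H2-Q1, H2-Eb1 and Aif1 for C3H and H2-Ea-ps, Lst1, C4b, H2-Q1 and C4a for WSB. C4b, a complement component, was lower in WSB (-1.12 ± 0.13 (SE), limma adjusted p = 0.00368) while C4a was higher (1.71 ± 0.21 (SE), limma adjusted p = 0.00459), though these paralogs are near-identical and how their reads were split is uncertain. For WSB against C3H they were C4b, H2-Bl, Flot1, Ier3 and Lst1, all lower in WSB. Tap1 and Tap2 lie inside the interval, 0.19 Mb and 0.21 Mb from H2-K1, and were not called.

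**Figure D5:**
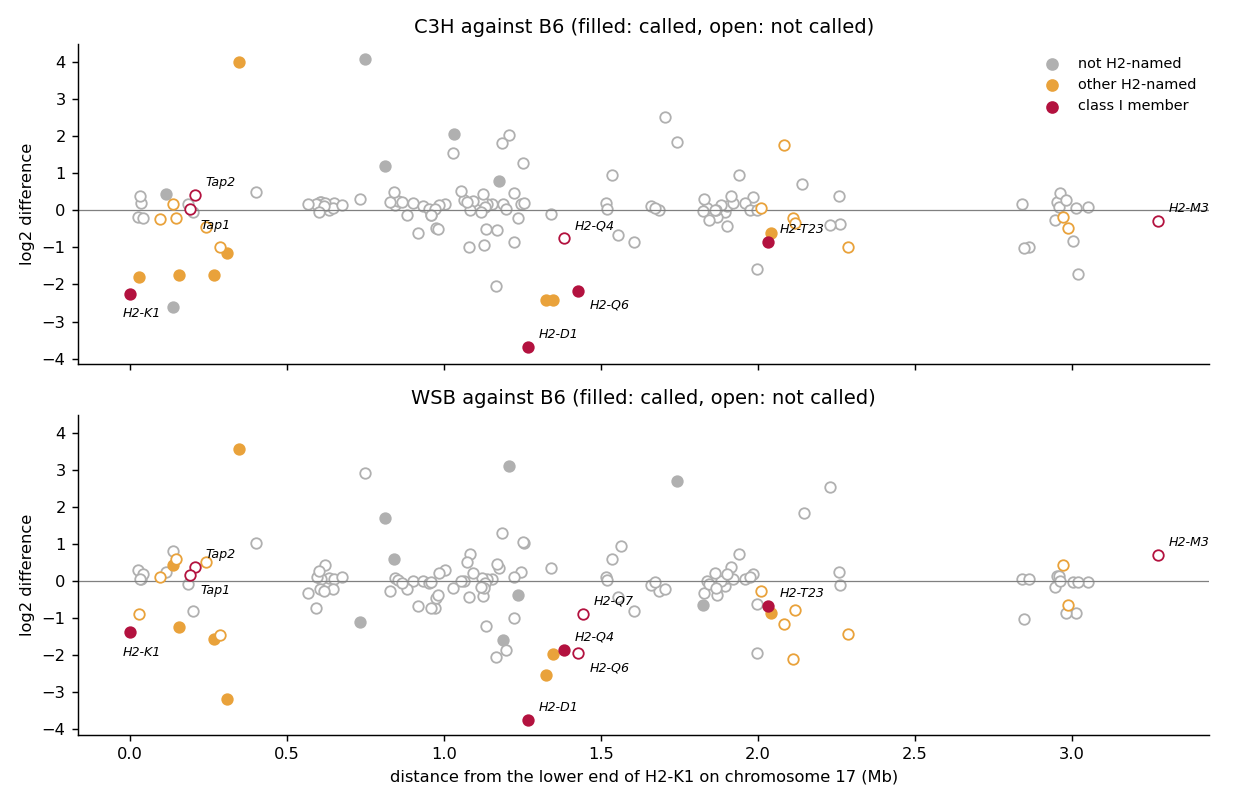
Log2 difference from B6 of each gene tested between H2-K1 and H2-M3, by distance in Mb from the lower end of H2-K1 on chromosome 17, for C3H (top) and WSB (bottom), filled where called. The called class I members all lie below 0, between genes without an H2 name of which most are open points near 0.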

How the data were processed

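Per the labels, processing notes and methods, the authors trimmed the paired-end reads with Cutadapt, aligned them with STAR, counted them on genes with HTSeq and tested them with DESeq2, with versions, genome build and strand setting not given in the sources used here. The deposited table holds FPKM, made by the authors per gene and mouse. Multiplied by gene length, every FPKM of a library came out at whole reads within 0.01 read of one common unit, and these reads were used for depth and for limits of 3 reads, covering counting error only. Of its 54532 genes, 54409 were found in GENCODE M21 (GRCm38), and 0 value columns were unused. Mice were grouped by the strain label, and each pair of strains was compared with limma 3.58.1 in R 4.3.3 (lmFit, then a two-sided eBayes test with trend) on log2(FPKM + 0.1), keeping genes whose mean reached 0.1 FPKM, with Benjamini-Hochberg adjustment over all genes tested and a threshold of 0.05. The method was run on simulated counts with a common spread for all genes. They held no loss of reads from other alleles, so that limit was not tested. Alternatives were a pseudocount of 1 or of 0.01, a filter of 1 FPKM or none, scaling to total reads, all 9 libraries in one fit, no trend, voom weights, removal of GC trends, a replicate block and leaving out each mouse.

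Members and lists were chosen with earlier results of these data known. Genes named outside the members were those called in a list (at most 6 a list and comparison), the 5 smallest adjusted p in the chromosome 17 interval, and for each member the 3 genes with the highest Pearson r (those of H2-Q4 are not reported here). Psmb8, Psmb9, Tapbp, Hspa5, Pirb and H2-Ea-ps as a strain check were chosen with their values already known. Coding sequences were aligned with mafft 7.526, promoters came from RefSeq, and figures were drawn with matplotlib 3.10.9. The kappaB letters searched for were shortened and loosened after a stricter form had been searched and its matches seen, which raised the number of promoters that hold them, among the members and among all genes.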

Additional observations from a re-analysis of the deposited data

Results flagged for a closer look

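H2-K1 was lower than in B6 in both other strains, and the size differed between them. Against B6 the log2 difference was -2.24 in C3H and -1.39 in WSB. WSB minus C3H was 0.86 on the log2 scale (SE 0.16, limma adjusted p = 0.0243), with all 3 WSB mice above all 3 C3H mice. The call was lost in 5 of the 6 fits without 1 mouse, all but the one without C3H replicate 2.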

How the results depend on the processing

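Over the 3 comparisons, H2-K1 and H2-D1 were called lower against B6 under every alternative run, and H2-T23 in C3H likewise. In C3H the members called fell from 5 to 3 with the replicate block, which lost B2m and H2-Q6. Between WSB and C3H, 2 members were called with all 9 libraries in one fit (H2-Q4 added), 0 without a trend and 0 with the replicate block. Replicate numbers do not pair the mice: deviations of same-numbered mice correlated at -0.157 to 0.037. Leaving out 1 mouse gave 4 to 5 members called in C3H against B6, 3 to 5 in WSB against B6 (3 without WSB replicate 2 or without B6 replicate 1, both losing H2-Q4 and H2-T23) and 0 to 1 in WSB against C3H. H2-Q6 in WSB was called with all 9 libraries (adjusted p = 0.0307) and with voom weights (0.0275). With a pseudocount of 1 H2-Q6 in C3H was not called (-0.46, adjusted p = 0.0855). The filter of 1 FPKM left 7, 6 and 5 members to test. Signs turned only in differences that were not called, all near 0: H2-M3 in C3H without B6 replicate 1 (0.0033, with -0.53 to 0.0033 over the mice left out), Tap1 in C3H with GC trends removed (-0.11) and without 1 mouse (-0.11 to 0.26), and Tap1 in WSB without WSB replicate 2 (-0.051, with -0.051 to 0.47 over the mice left out). Between WSB and C3H they were H2-D1 (0.040 with GC trends removed, -0.25 to 0.13 without 1 mouse), Tap1 (-0.089 to 0.43 without 1 mouse) and Tap2 (0.00055 scaled to total reads, 0.081 with GC trends removed, -0.14 to 0.039 without 1 mouse). The causes were not tested. Few reads limit H2-Q6 and H2-Q7, with at most 21 per library.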

Other observations

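For each member, the genes whose log2 level followed it most closely over the 9 mice were mostly on other chromosomes. The search took in the 13009 genes averaging 1 FPKM or more, and 2 of the 30 nearest (3 a member) lay on chromosome 17, with Pearson r from 0.860 to 0.995. These r describe 9 libraries in 3 strain clusters, and any gene with the same order of strains scores high, so no p is given. H2-K1 was followed by Pcdhga3, Sox2ot and Mboat2, and H2-D1 by Rps3a1, Rnf169 and Fam234b. For H2-T23 they were Chtop, Muc3a and Fmn2, and for H2-M3 Col11a2, Gm10791 and Man2a2. H2-Q6 was followed by Pon2, Diaph2 and Ndufaf7, and H2-Q7 by Zeb1, Fmn2 and Ank3. B2m was followed by Ide, Mfap3 and Eif3j1, Tap1 by Slc27a2, Lmln and Tgfbr3l, and Tap2 by Arrdc1, Twnk and Zwint. No member was among the 3 nearest genes of another, though H2-Q4, H2-Q6, H2-Q7 and Tap1 averaged under 1 FPKM and were not in the search.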
